A study of Homo sapiens with 4 samples.

Results

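The miR-130, miR-301 and miR-454 family is a group of human microRNAs (miRNAs) that share a seed, the stretch of bases 2 to 8 with which a miRNA pairs to its targets. Its members were taken by name from the deposited count table, as hsa-miR-130a-3p, hsa-miR-130b-3p, hsa-miR-301a-3p, hsa-miR-301b-3p and hsa-miR-454-3p, and the prefix for human is left out from here on. Of these 5 names, 3 were among the 843 distinct mature names of the table, while miR-301a-3p and miR-301b-3p were not listed and counted as not detected. The libraries came from RNA pull-down, in which a biotinylated RNA probe on streptavidin beads is mixed with a cell lysate and whatever RNA stays bound is sequenced. The lysates were from HGC27 and AGS, established human gastric cancer cell lines, and all groups stably overexpressed the 3′-UTR of FN1, the fibronectin gene, from a lentivirus. The 4 groups were HGC27 with the negative probe, HGC27 with the positive probe, AGS with the negative probe and AGS with the positive probe to the FN1 3′-UTR, with 1 library each and no replicate. The study's methods name biotinylated antisense RNA on the beads, and the labels name a transcript or its antisense. Neither says which of these the positive and the negative probe were, and a ratio is therefore not taken as binding to either strand. Cells that were not probed are not analysed here, so the values describe the bound RNA and not the level in the cells.

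A miRNA hairpin is cut into a 5p and a 3p arm, and as a rule 1 of them is loaded into Argonaute and guides it to mRNAs while the other is degraded. miRNAs that share a seed are predicted to recognise many of the same targets. In this family the 3p arm is the one that carries the shared seed and is usually described as the guide. The family is known as a repressor of members of the TGF-β and BMP pathways, and it has been studied in several carcinomas.

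The mature sequences are shown because the shared seed defines the family and the remaining bases set its branches apart. Each runs 5′ to 3′ with bases 2 to 8 in capitals. The sequences of miR-130a-3p, miR-130b-3p and miR-454-3p are those of the deposited table, and the other 2 are from RefSeq.
miR-130a-3p: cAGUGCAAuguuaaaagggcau
miR-130b-3p: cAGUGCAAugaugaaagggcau
miR-301a-3p: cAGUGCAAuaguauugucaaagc
miR-301b-3p: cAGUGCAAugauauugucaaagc
miR-454-3p: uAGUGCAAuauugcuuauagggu

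Counted from the 5′ end, miR-130b-3p differed from miR-130a-3p at 2 of 22 bases (U11A and A13G). miR-301b-3p differed from miR-301a-3p at 2 of 23 bases (A10G and G11A). Between the branches, miR-130b-3p and miR-301b-3p differed at 9 of the 22 positions they share. No entry of the table outside the listed members, known or predicted, held AGUGCAA at bases 2 to 8. Among the 2370 mature miRNAs of the RefSeq table, miR-3666 and miR-4295 hold the same seed as well, and neither was listed in the count table.

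The 5p arms of the same hairpins are shown because they held most of the reads, as described below. They do not carry the family seed, and they fall into separate seed groups. The sequence of miR-130a-5p is from RefSeq and the others are from the table.
miR-130a-5p: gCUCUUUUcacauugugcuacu
miR-130b-5p: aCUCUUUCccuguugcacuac
miR-301a-5p: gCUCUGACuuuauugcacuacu
miR-301b-5p: gCUCUGACgagguugcacuacu
miR-454-5p: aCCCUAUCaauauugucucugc

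miR-301a-5p and miR-301b-5p shared the seed CUCUGAC and differed at 4 of 22 bases (U9G, U10A, U11G and A12G). The seeds of miR-130a-5p and miR-130b-5p differed in their last base. The letters UUGCACU, the reverse complement of the family seed, were held by miR-130b-5p, miR-301a-5p and miR-301b-5p and were not found in miR-130a-5p and miR-454-5p. These letters can pair with the seed of the 3p arm.

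In GRCh38 the hairpins lie in 3 places. The mir-301b hairpin (chr22:21652981-21653058, plus strand, in an intron of the noncoding gene AP000553.1) and the mir-130b hairpin (chr22:21653304-21653385, plus strand, in an exon of that gene) are 245 bases apart. The mir-454 hairpin (chr17:59137758-59137872) and the mir-301a hairpin (chr17:59151136-59151221) are on the minus strand in introns of SKA2, a gene for a kinetochore protein, and 13263 bases lie between them. The mir-130a hairpin (chr11:57641198-57641286, plus strand) lies alone, in an intron of the noncoding gene AP000662.1. Within the mir-130b hairpin, miR-130b-5p runs from 21653316 to 21653336 and miR-130b-3p from 21653354 to 21653375 of chromosome 22.

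The tables held 1452832 and 1296853 miRNA counts for the negative and positive probes in HGC27, and 2955078 and 1527390 in AGS. In the same order 574, 609, 342 and 361 names were listed. The lowest count listed was 2, so a blank can stand for 0 or 1 count. AGS counts were dominated by miR-372-3p, with 2388335 and 572497 counts against 2580 and 3885 in HGC27, and comparisons between the lines turn on how the libraries are scaled. Cell type markers were read as summed scores, the deposited tags per 1000000 rounded to whole numbers. For 5 of 5 epithelial markers listed (the miR-200 family) the sums were 652 and 357 in HGC27 and 8296 and 750 in AGS. For 5 of 5 mesenchymal markers listed (miR-199a, miR-214, miR-143 and miR-145) they were 3521 and 3616 in HGC27 and 11 and 39 in AGS. The near-equal HGC27 sums hide 1 marker at least 2-fold higher and 2 at least 2-fold lower with the positive probe. There miR-199a-3p went from 7692 to 58 counts and miR-143-3p from 1999 to 9123. Of 4 blood cell markers only miR-144-3p was listed, with 2 counts in 1 library, and miR-451a, miR-223-3p and miR-142-3p were not listed. The part of these differences in the results below was not tested.

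The seed-bearing 3p arms had few counts in every library. Summed over the family they held 28 counts (negative probe) and 11 counts (positive probe) in HGC27, and 13 and 2 in AGS. As deposited scores these sums were 10, 4, 2 and 0. In the HGC27 negative probe library, where the sum was highest, the family made up 19.3 counts per 1000000 of the table (Wilson 95% confidence interval 13.3 to 27.9). In the AGS positive probe library the corresponding value was 1.31 (0.359 to 4.78). These intervals, and all others given here, cover counting error only, since reads of a PCR library are not independent molecules.

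Among the members, miR-130b-3p and miR-454-3p held nearly all counts. miR-130b-3p had 19 counts with the negative and 2 with the positive probe in HGC27, and in AGS it had 5 and was not listed. miR-454-3p had 6 and 9 counts in HGC27 and 6 and 2 in AGS. miR-130a-3p, with 3 counts in HGC27 and 2 in AGS, was listed only with the negative probe. miR-130b-3p was thus the most counted member in 1 library, that of HGC27 with the negative probe, where it ranked 241 of 574 listed names, and miR-454-3p held the most counts in the other 3, by 1 count in AGS with the negative probe. Only miR-454-3p was listed in all 4 libraries.

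**Figure D1:**
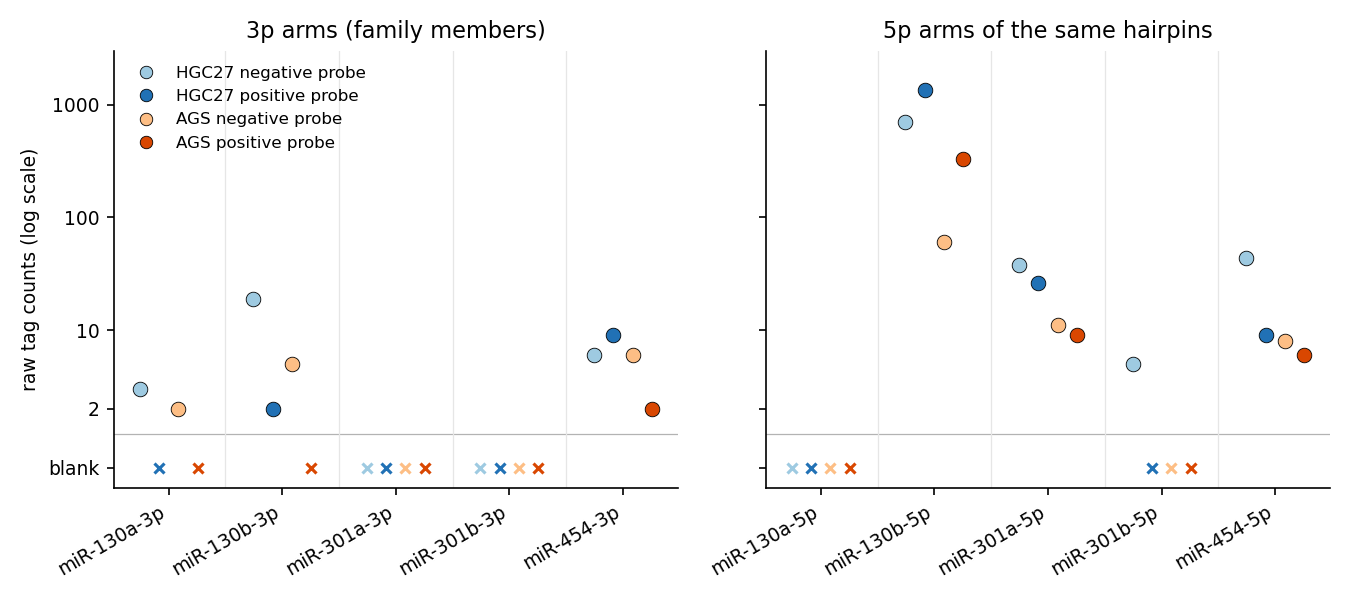
Raw tag counts (log scale) of the 5 members (left) and of the 5p arms of the same hairpins (right), with 1 point per library and crosses for names with no listed count. No member exceeded 19 counts in any library, whereas miR-130b-5p lay between 60 and 1347.

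The opposite 5p arms were far more abundant. miR-130b-5p had 697 counts with the negative and 1347 with the positive probe in HGC27, and 60 and 326 in AGS. It ranked 73 of 574 and 55 of 609 listed names in the HGC27 libraries and 102 of 342 and 56 of 361 in those of AGS. miR-301a-5p had 38 and 26 counts in HGC27 and 11 and 9 in AGS, although its 3p partner was not listed in any library. miR-454-5p had 44 and 9 counts in HGC27 and 8 and 6 in AGS. miR-301b-5p was listed only in HGC27 with the negative probe, with 5 counts, and miR-130a-5p was not listed. The mature forms compared are 21 to 23 bases long, so counts within a library were not divided by length.

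The share of the 3p arm among the counts of both arms does not depend on how libraries are scaled. For mir-130b it was 2.65% of 716 counts with the negative probe in HGC27 (Wilson 95% CI 1.71 to 4.11) and 0.148% of 1349 with the positive probe (0.0407 to 0.539). In AGS it was 7.69% of 65 counts with the negative probe (3.33 to 16.8) and 0% of 326 with the positive probe (upper limit 1.17). In both lines the share was therefore lower with the positive probe and the counting intervals did not overlap, but no replicate shows how far it varies between libraries of 1 group. For mir-454 the share was 12% (Wilson 95% CI 5.618 to 23.8) and 50.0% (29.03 to 70.97) in HGC27, on 50 and 18 counts. There it was higher with the positive probe, opposite to mir-130b, and the counting intervals did not overlap either, again with no replicate. In AGS it was 42.9% (21.38 to 67.41) and 25.0% (7.148 to 59.07), on 14 and 8 counts, with overlapping intervals. With the 5 hairpins summed, the 3p arms made up 3.45% and 0.790% of the counts in HGC27 and 14.1% and 0.583% in AGS. Most of these counts were from mir-130b, with 716 of 812 and 1349 of 1393 in HGC27 and 65 of 92 and 326 of 343 in AGS. The summed share therefore mainly describes that hairpin.

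A 5p arm above its 3p arm was common in the table. Among the hairpins with both arms listed and at least 10 counts in a library, 56.9% of 102 and 58.8% of 102 had more 5p counts in the HGC27 libraries, and 56.5% of 85 and 61.7% of 81 in those of AGS. The median 3p share over these hairpins was 37.3% and 26.5% in HGC27 and 25.0% and 15.3% in AGS. The share of mir-130b lay below the median in all 4 libraries, but many hairpins were as low. At or below its value, itself included, were 30 (29.4%) and 18 (17.65%) hairpins in the HGC27 libraries. In AGS they were 35 (41.2%) and 29 (35.8%), and those with the positive probe were all ties at 0%. Over 63 hairpins that could be compared in HGC27, the log2 ratio of the 5p arm, positive over negative probe, exceeded that of the 3p arm by a median of 0.31. For mir-130b the excess was 3.02, and 10 hairpins, itself included, had an excess at least as large. A hairpin was compared if each arm had at least 10 counts in either library of the line. miR-130b-3p passed this filter only with the negative probe, with 19 counts against 2 with the positive probe (scores 7 and 1). The filter thus favoured a large excess for mir-130b, and its rank is not support for a difference. Hairpins with the same mature arms, such as mir-199a-1 and mir-199a-2, enter these hairpin counts separately, so the counts are not of independent units. In AGS the excess was a median of 1.87 over 27 hairpins, and mir-130b had too few 3p counts to be among them.

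**Figure D2:**
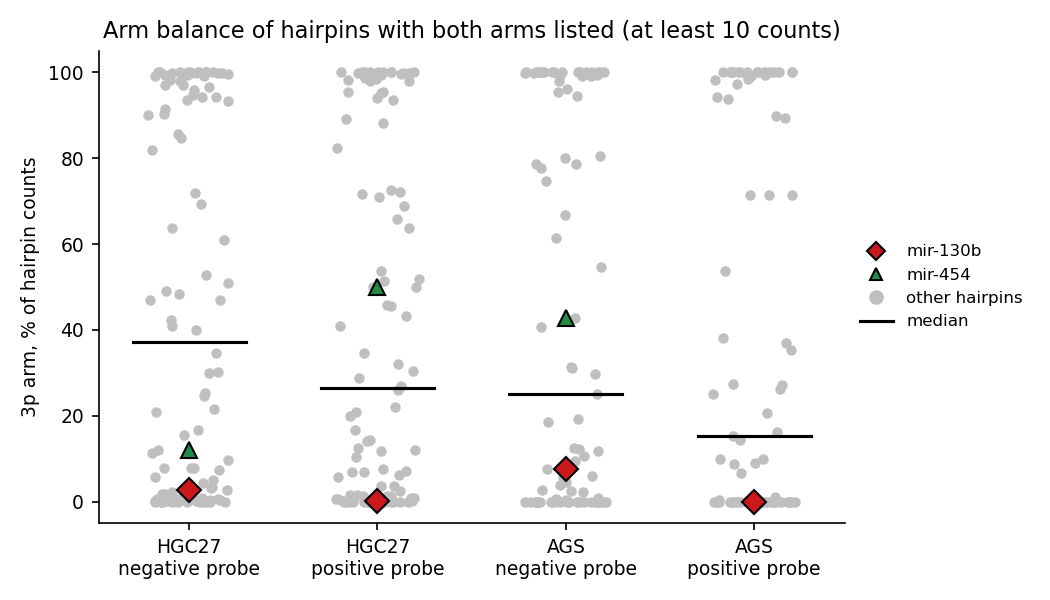
The 3p arm as a percentage of the counts of both arms, for each hairpin with both arms listed and at least 10 counts in that library, with the median as a line. mir-130b lay between 0% and 7.69% and below the median in all 4 libraries, while mir-454 (plotted where it had at least 10 counts) lay at 12%, 50.0% and 42.9%.

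Next, the probes were compared within each line, to ask whether members were recovered differently with the positive probe. Each ratio was taken as (score + 1) with the positive probe over (score + 1) with the negative probe. A ratio of at least 2 was called higher and a ratio of at most 0.5 lower, with no test, since each group was 1 library. The intervals are exact 95% intervals of the ratio of unrounded tags per 1000000, from the counts and without the added 1. In HGC27, miR-130b-3p had a ratio of 0.25 (interval 0.0125 to 0.459), which is called lower and lay below 1 beyond counting error. On the log2 scale this was -2, and with a pseudocount of 10 it was -0.63, short of 2-fold. miR-454-3p had a ratio of 1.33 (0.502 to 5.39), within counting error of no difference. Of 755 entries with a count in HGC27, 37.5% were called higher and 34% lower. Counted the same way, by the score alone, 2 of the 3 members with a count were lower and none was higher, and 1 of these calls, miR-130a-3p, was a score of 1 against 0 on 3 counts and is given no fold.

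In AGS, miR-130b-3p went from 5 counts to a blank, and the interval of its ratio was 0 to 1.83. miR-454-3p had a ratio of 0.5, at the threshold, with an interval of 0.0553 to 3.13. By the score both stood at 1 with the negative and 0 with the positive probe, a ratio of 0.5 that rests on a single rounded unit. In AGS, 39.4% of 459 entries were called higher and 22.7% lower, while 2 of the 3 members with a count were lower and none was higher. Without the rounding of the score both lower calls ended, with log2 ratios of -0.32 for miR-454-3p and -0.76 for miR-130b-3p. The summed family had a ratio of 0.455 in HGC27 (interval 0.186 to 0.856) and 0.333 in AGS (0.0283 to 1.14). Unrounded, the AGS sum had a log2 ratio of -0.94, short of 2-fold. Without miR-454-3p, an alternative chosen after the values were seen, the HGC27 ratio of the sum was 0.222. The HGC27 decrease of the sum thus lay in miR-130b-3p and miR-130a-3p, and in AGS the decrease was within counting error. The median log2 ratio of all entries with a count was 0 in both lines.

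The 5p arms differed among themselves. miR-130b-5p was called higher in both lines, with a ratio of 2.02 in HGC27 (interval 1.85 to 2.23) and 8.56 in AGS (6.91 to 12.2). In HGC27 the ratio lay at the threshold, and its log2 value, 1.02, was between 0.95 and 1.21 under the other scalings and pseudocounts, falling short of 2-fold on raw counts (0.95) and with a pseudocount of 10 (0.99). In AGS the log2 ratio was 3.10 and ranged from 1.68 to 3.33, with the lowest value where the library totals did not include miR-372-3p. miR-454-5p was lower in HGC27, with a ratio of 0.25 (0.0924 to 0.447) that fell short of 2-fold with a pseudocount of 10 (log2 -0.94), and in AGS its ratio was 1 (0.360 to 4.14). miR-301a-5p had a ratio of 0.714 in HGC27 (0.420 to 1.22) and 1 in AGS (0.504 to 3.65), both within counting error of no difference.

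**Figure D3:**
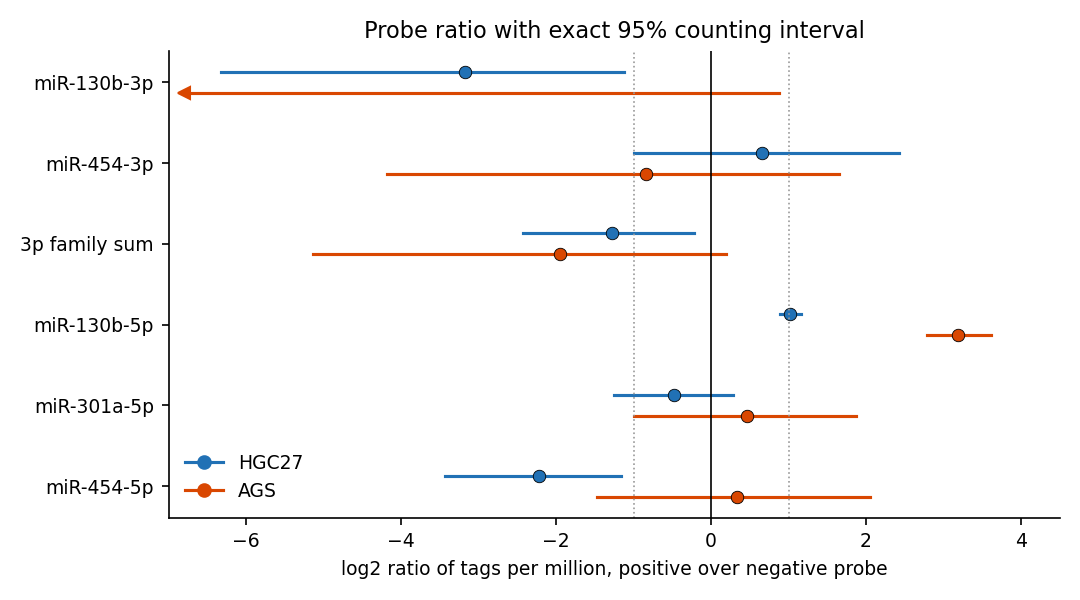
Log2 ratio of unrounded tags per 1000000, positive over negative probe, with exact 95% counting intervals (lines) for HGC27 (blue) and AGS (orange), dotted lines marking 2-fold. miR-130b-5p lay to the right of 0 in both lines, and the 3p sum lay to the left of 0 in both, with an AGS interval (0.0283 to 1.14 as a ratio) that included no difference; the arrow marks the AGS interval of miR-130b-3p, which reaches down to a ratio of 0.

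The lines were then compared within each probe. With the negative probe the summed family was 3.67 times as high in HGC27 as in AGS by the deposited score (interval 2.67 to 11.2), and miR-130b-3p was 4 times as high (3.39 to 32.2). With the positive probe the ratio of the sum was 5 (1.86 to 79.0), on 11 and 2 counts. In these comparisons 86% of 615 entries and 75.3% of 684 entries were at least 2-fold higher in HGC27, with 6.02% and 12.9% at least 2-fold lower, and the median log2 ratio of all entries was 1.58 and 1.01, so most of the table was higher in HGC27 on this scale. Of the members with a count, 2 of 3 and 2 of 2 were higher by the score. With TMM scaling the negative probe value of the family, 1.87 on the log2 scale, became -0.57, and it became -0.65 with DESeq2 size factors and -0.24 with totals that did not include miR-372-3p. The value of miR-130b-3p, 2 on the log2 scale, became 0.16 under TMM and 0.12 with DESeq2 size factors. No direction between the lines is therefore given for the family. miR-130b-5p was 26.8 times as high in HGC27 with the negative probe (22.0 to 38.0) and 6.34 times with the positive probe (5.66 to 7.23). It was higher in HGC27 under every scaling tried, with a log2 ratio of at least 1.73 (negative probe) and at least 0.11 (positive probe).

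**Figure D4:**
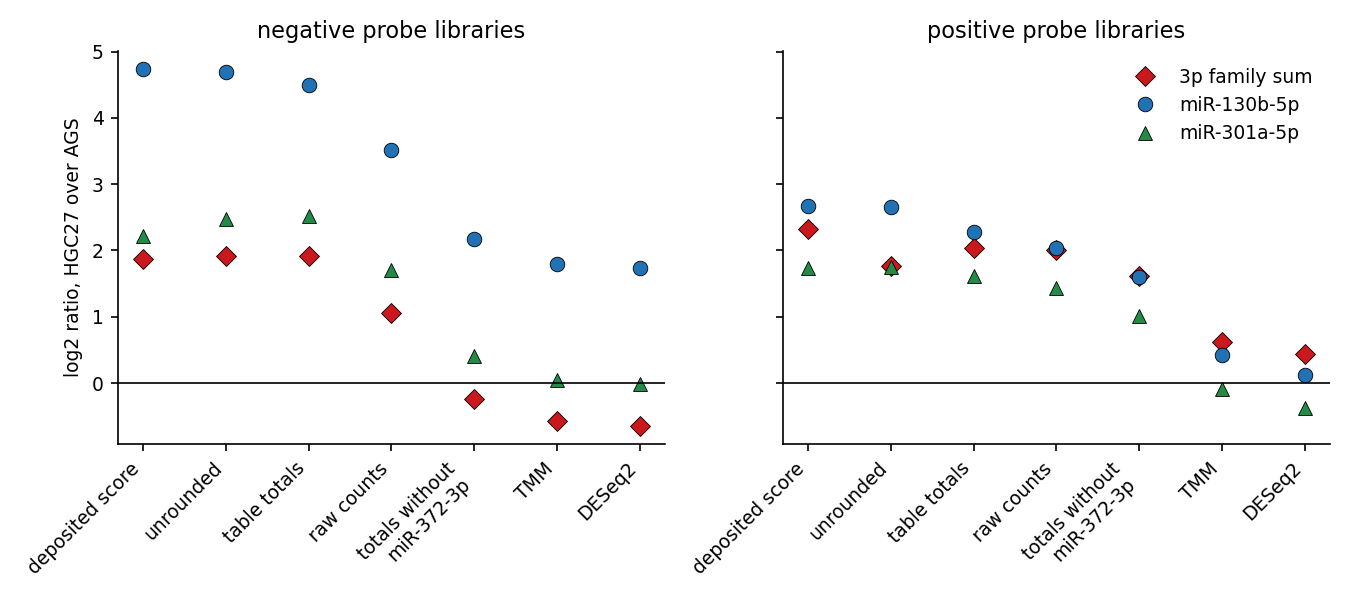
Log2 ratio of HGC27 over AGS for the summed 3p arms, miR-130b-5p and miR-301a-5p under 7 ways to scale the libraries, for the negative (left) and positive (right) probe libraries. The family value with the negative probe lay at 1.87 with the deposited score and at -0.57 under TMM, while miR-130b-5p was above 0 in each.

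In the comparison with more than 1 library a side, edgeR's quasi-likelihood test was fitted to the counts of all 4 libraries with the line or the probe as covariate, so that the lines stand in for replicates. None of the 5 members had enough counts to be tested. Of 271 entries tested, the probe comparison called 4.06% higher and 2.95% lower at an adjusted p under 0.05, and the line comparison called 22.1% higher and 7.75% lower in HGC27. The 3 tested 5p arms were not called. With the positive probe the estimate for miR-130b-5p was 1.69 ± 1.12 on the log2 scale (estimate ± SE, adjusted p = 0.383, edgeR), for miR-454-5p it was -1.41 ± 1.03 (adjusted p = 0.419) and for miR-301a-5p it was -0.40 ± 1.00 (adjusted p = 0.875). Between the lines, the estimate for miR-130b-5p was 0.88 ± 1.10 (adjusted p = 0.575, edgeR). Without the filter on low counts, the probe estimate was -3.63 ± 2.14 for miR-130b-3p (adjusted p = 0.834, edgeR) and -0.31 ± 1.82 for miR-454-3p (adjusted p = 0.962, edgeR). An adjusted p above 0.05 with so few libraries does not show that a miRNA did not differ.

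The FN1 3′-UTR of the annotated transcript used here is 1101 bases long (chr2:215360454-215361554). It was searched on both strands for the complement of each seed, since either strand could be the probe. The family site TTGCACT (complement of bases 2 to 8) was found 0 times on either strand, and so was its 6-base form TGCACT. Of 478 distinct seeds of known miRNAs in the table, 7.53% had a 7-base match on the sense strand and 6.90% on the antisense strand, so most seeds had none. For the 5p arms, the 6-base form AAAGAG shared by miR-130a-5p and miR-130b-5p was found 1 time on each strand, and among 440 distinct 6-base seeds 25.7% and 22.1% had a match. The 7-base site of miR-130b-5p, GAAAGAG, was not found on either strand, and that of miR-130a-5p, AAAAGAG, was found 1 time on the antisense strand. The seeds of miR-301a-5p, miR-301b-5p and miR-454-5p had no match of 6 or 7 bases. A match of letters is not a binding site, and the absence of one says only that these letters are not in this window.

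A pair of known families have a seed that is shifted by 1 base against this one, and they are shown for comparison. The miR-148 and miR-152 family reads the same letters 1 base later and the miR-19 family 1 base earlier.
miR-148a-3p: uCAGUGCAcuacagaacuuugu
miR-19a-3p: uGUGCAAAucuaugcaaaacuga

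Summed over their miRNAs, both shifted families held more counts than the summed members in each library, with 312, 28, 44 and 3 counts for the miR-19 family. miR-148a-3p, an abundant miRNA of the digestive tract, had 734628 counts with the negative and 453909 with the positive probe in HGC27, and 144027 and 24595 in AGS. miR-19a-3p, of the growth-associated miR-17-92 cluster, had 157 and 8 counts in HGC27 and 25 in AGS with the negative probe, and was not listed in AGS with the positive probe. Of the 3 miRNAs of the miR-148 and miR-152 family, 2 were lower with the positive probe in HGC27 and 3 in AGS, with median log2 ratios of -1.38 and -1.80. Both miR-19 miRNAs were lower in each line, with medians of -3.27 and -1.5. Of all entries with a count, 34% were lower in HGC27 and 22.7% in AGS. In edgeR, miR-19a-3p was the only one of the 5 called, at -4.72 ± 1.30 on the log2 scale for the probe (estimate ± SE, adjusted p = 0.0206). It was not called with library totals (adjusted p = 0.106), without the filter (0.458), without the covariate (0.611), in limma-voom (0.109) or in DESeq2 (0.0521), and the direction was the same in each.

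The miRNAs whose pattern lay nearest to the summed family were found among 190 known miRNAs with at least 100 counts, by the distance of their centred log2(score + 1) values over the 4 libraries. The nearest was miR-186-5p (distance 0.56), with 146 and 38 counts in HGC27 and 78 and 18 in AGS. miR-30d-5p followed at 0.60, with 646 and 207 counts in HGC27 and 582 and 87 in AGS. miR-7-5p was the third, at 0.73, with 31405 and 14659 counts in HGC27 and 39419 and 6304 in AGS. All had fewer counts in the positive probe library of each line. They were picked for likeness to the family pattern over these same libraries, so this adds no evidence for the family. The order among them rests on a family sum of 2 to 28 counts a library, and no member had the 100 counts needed for a search of its own.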

How the data were processed

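Small RNA libraries were made from pull-down material of HGC27 and AGS cells (4 libraries, 1 per group, grouped by the labels of cell line and probe). The submitters' processing notes name cutadapt 1.9.3, Novoalign 3.02.12 and the build hg38. How reads matching several miRNAs were assigned is not given in the sources used here. The authors deposited raw counts of tags per mature miRNA and precursor, whose 901 rows were collapsed to 843 names (570 known, 273 predicted). A second deposited table holds a score, which is the tags per 1000000 after rounding to integers by the authors. It had been planned as a continuous unit and was used with the same ratio. The table totals were 35.8% to 50.0% of the divisors recovered from counts and scores, and why is not given. A total of 97 and 50 listed entries in the AGS negative and positive probe libraries had a count but a score of 0.

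The members and lists were chosen with earlier results of these data known. Named miRNAs were the members, their opposite arms, other holders of the seed, the miR-148 and miR-152, and miR-19 lists, the 3 miRNAs of nearest pattern and miR-372-3p. No fold was given where both counts were 3 or less. Counts were fitted in edgeR 4.0.16 (R 4.3.3) with filterByExpr, TMM and Benjamini-Hochberg adjustment. The fit left 1 residual degree of freedom and its biological coefficient of variation was 0.612. Its prior degrees of freedom were infinite, so the quasi-likelihood spread was shared across miRNAs and was not each miRNA's own. The SE given with edgeR estimates was derived, as the absolute log2 fold change over the square root of the F statistic. Intervals were computed in scipy 1.17.1 and statsmodels 0.14.6. The edgeR script was tested on simulated data. Sequences and hairpin positions came from the table, RefSeq and the GRCh38 annotation, and 8 of the 10 names of members and opposite arms matched the RefSeq mature table. Alternatives were other scalings, pseudocounts, filters, thresholds and tools (limma-voom in limma 3.58.1 and DESeq2 1.42.0).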

Additional observations from a re-analysis of the deposited data

Results flagged for a closer look

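miR-454-3p moved in opposite directions in the lines, with a log2 ratio of positive over negative probe of 0.415 in HGC27 (6 and 9 counts) and of -1 in AGS (6 and 2 counts). The difference between the lines was not tested, and each ratio was within counting error of no difference.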

How the results depend on the processing

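The lower family sum with the positive probe kept its direction under all 10 alternatives in each line (log2 -2.17 to -0.51 in HGC27 and -4.39 to -0.26 in AGS). Other pseudocounts could not change the direction, nor could adding predicted entries, and the sum without miR-454-3p was chosen after the values were seen. The HGC27 to AGS log2 ratio of the family with the negative probe was 1.05 on raw counts, 0.74 with a pseudocount of 10, -0.57 under TMM, -0.65 with DESeq2 size factors and -0.24 without miR-372-3p in the totals. With the positive probe it was 0.62 under TMM, 0.44 with DESeq2 size factors and 0.49 with a pseudocount of 10. The cause was not tested.

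Of 224 values of single miRNAs under alternatives, 173 were counted as unchanged. For the edgeR fits these kept their direction and, where tested, their call. For the ratios they lay inside the counting interval, although a 2-fold call could end there, as for miR-130b-3p in AGS without rounding (log2 -0.76). A further 40 lay outside the interval (3 of them, for miR-454-3p between the lines with the negative probe, on the other side of 0). Another 10 turned direction and 1 newly passed the threshold. The last was miR-130b-5p between the lines in edgeR with library totals (log2 fold change 3.41, adjusted p = 0.0116). In that fit miR-301a-5p and miR-454-5p turned to 2.29 and 2.23, and for the probe miR-301a-5p turned to 0.094. With 1 probe left out, values with no test, the line estimate ranged from -0.083 to 0.053 for miR-301a-5p and from -0.845 to 0.665 for miR-454-5p. The HGC27 to AGS log2 ratio of miR-301a-5p was -0.0089 with DESeq2 size factors for the negative probe, and for the positive probe -0.083 under TMM and -0.38 with DESeq2 size factors, where miR-454-5p had -0.84 and -1.20.

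In edgeR, the 19 entries called for the probe became 0 with library totals (52 at an unadjusted p under 0.05), 0 where low counts were kept (66), 0 where each library needed 10 counts or more (16), 0 without the covariate (17), 0 in limma-voom (72), 32 with DESeq2 size factors and 38 in DESeq2. The 81 called for the line became 169 with library totals, 0 where low counts were kept (95 at an unadjusted p under 0.05) and 15 where each library needed 10 counts or more. Over the whole table, entries called by the probe ratio ranged from 42 to 292 higher and 62 to 270 lower in HGC27, and from 55 to 217 higher and 36 to 208 lower in AGS, and the lowest came with a pseudocount of 10 or a threshold of 4. Between the lines they ranged from 187 to 529 higher and 16 to 123 lower (negative probe) and from 162 to 515 and 23 to 189 (positive probe). The edgeR fit with the line as covariate compares the probes within each line. By replicate number, no paired analysis was possible because the labels give none and each group holds 1 library. No predicted entry held the seed, so adding such entries changed no sum.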
